A study of Mus musculus with 8 samples.

Results

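Adipose marker genes encode the hormones, droplet proteins and heat-making protein by which fat cells are commonly recognised. The 9 genes described here are Adipoq, Cfd, Lep, Retn, Plin1, Cidec, Plin4, Cidea and Ucp1. They were taken by name from a table of 30445 genes, and all 9 had a row. Each was read in 8 libraries of poly(A) RNA from hearts of C57 mice, 8 weeks after transverse aortic constriction, an operation that narrows the aorta and puts the left ventricle under pressure load. There were 4 libraries labelled Mertk knockdown, set against 4 libraries labelled wildtype; both groups were operated, and no unoperated heart was analysed here. The series title names macrophage MERTK, but the labels give neither the means nor the cells of the knockdown, nor the age of the mice. They also do not say that each library came from its own mouse, so every p-value refers to the scatter among libraries, which may be technical. In bulk tissue, fewer fat cells and less RNA per fat cell cannot be told apart.

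White fat cells store triglyceride in 1 large droplet, coated by perilipins that hold back the lipases, and enlarged by CIDE proteins that move lipid from droplet to droplet. They also secrete hormones and enzymes, the adipokines, which reach other organs through the blood. Brown and beige fat cells carry many small droplets and burn lipid for heat through an uncoupling protein of the mitochondria. The heart is bordered by fat of both kinds, around the atria, along the great vessels and on the pericardium, while cardiomyocytes keep small lipid droplets of their own.

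Of the 9 genes, 7 were nearly absent from most libraries and 2, Plin4 and Cidea, were not, so the name adipose marker went against the data for these 2. Adipoq, Cfd, Lep, Retn, Plin1, Cidec and Ucp1 were at or near 0 in most libraries, and 84.6% to 100% of each gene's summed level over the 8 libraries lay in wildtype replicate 3. Plin4 and Cidea were present at high level in all 8 libraries, and wildtype replicate 3 held 20.2% and 17.4% of their sums, where an even spread would give 12.5%. All 9 genes were nevertheless highest in wildtype replicate 3, as were 11.7% of all tested genes. The tested genes include only 4 of the 9, so the 11.7% is the share of an unlike set. The division into 7 and 2 genes was made after their levels were seen, and it is used for description.

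Cfd and Retn, also high in wildtype replicate 3, had no match to the short sequences searched below, and their regions are not shown. The regions just before the start sites of 3 other members high in that library are shown, picked because they hold matches. They are 250 bases long, 5′ to 3′ on the gene's strand, from RefSeq on build GRCm38.p6. Capitals mark TTGCNNAA, the core recognised by C/EBP factors, or CCAAT, on either strand. The deposited table places the start of Plin1 a little before RefSeq's, inside the window.
Plin1 (chr7:79732777-79733026, minus strand): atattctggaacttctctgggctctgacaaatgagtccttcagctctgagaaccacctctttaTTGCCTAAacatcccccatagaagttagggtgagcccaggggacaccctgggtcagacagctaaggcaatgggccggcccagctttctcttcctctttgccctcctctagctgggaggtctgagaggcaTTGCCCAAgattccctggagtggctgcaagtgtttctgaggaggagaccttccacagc
Lep (chr6:29059971-29060220, plus strand): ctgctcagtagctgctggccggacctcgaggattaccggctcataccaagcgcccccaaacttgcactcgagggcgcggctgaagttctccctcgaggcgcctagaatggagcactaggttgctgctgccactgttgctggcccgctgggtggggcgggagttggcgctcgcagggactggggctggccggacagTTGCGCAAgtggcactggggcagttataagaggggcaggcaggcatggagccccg
Adipoq (chr16:23146286-23146535, plus strand): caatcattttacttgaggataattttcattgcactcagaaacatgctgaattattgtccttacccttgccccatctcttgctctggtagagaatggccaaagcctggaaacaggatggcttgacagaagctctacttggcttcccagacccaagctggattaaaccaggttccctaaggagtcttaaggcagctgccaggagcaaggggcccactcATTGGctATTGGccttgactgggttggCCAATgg
Plin1 had 2 matches to TTGCNNAA, beginning 187 and 58 bases before RefSeq's start site. The nearer one begins just inside the gene as deposited. Lep had 1 match at 55 bases. Cidec had 1 match, 198 bases before 1 of its 2 starts, which lies inside the gene as deposited. The window at its other start, the deposited one, had none. Adipoq had none of these, and 3 matches to CCAAT at 34, 27 and 7 bases before the start. Windows of 300 bases, which add 50 bases after the start, were searched on both strands for 8 members. Cidea was not searched, and Cidec has 2 starts, so there were 9 windows. They were compared with 32851 RefSeq windows of the same length. TTGCNNAA stood in 3 of the 9 windows and in 10.8% of all windows, CCAAT in 2 of 9 and in 37.4%, AGGTCA, a nuclear receptor half-site, in 1 of 9 (Ucp1) and in 16.3%, and TATAAA in 0 of 9 and in 13.6%. The direct repeat of AGGTCA with 1 base between, the form bound by PPAR-gamma with its partner RXR, was in 0 of 9 windows and in 0.0396% of all windows. These counts describe letters in a short window and say nothing of binding.

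Library totals were 63378755 to 68762911 counts in the libraries labelled Mertk knockdown and 59287621 to 71571173 in wildtype, and 3 counts correspond to 0.0407 to 0.0521 CPM (each count divided by its library's TMM-scaled total), a floor that covers counting error only. Mertk itself, the targeted gene, was at 10.6 to 12.8 CPM in the libraries labelled Mertk knockdown and at 10.4 to 12.3 CPM in wildtype (log2 fold change 0.10 with SE 0.11; adjusted p = 0.766 by edgeR), so the count of the whole gene did not separate the groups as labelled, and directions below are those of the labels. The libraries also differed in transcripts known from liver and atrium, whose source was not tested. Hepatocyte markers, summed over 13 genes, reached 186 to 261 CPM in the labelled knockdown libraries and 254 CPM in wildtype replicate 1, against 11.2 to 27.4 CPM in wildtype replicates 2 to 4. Atrial markers, summed over 5 genes, reached 679 CPM in labelled knockdown replicate 4, 373 CPM in wildtype replicate 3 and 245 CPM in wildtype replicate 4, and lay between 5.26 and 37.5 CPM in the other 5 libraries.

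The adipokines were led by wildtype replicate 3. Adipoq encodes adiponectin, a hormone secreted by fat cells that raises insulin sensitivity (ENSMUSG00000022878, mm10 chromosome 16, 23146536 to 23158028, plus strand). It was at 0.422, 0, 0 and 0.264 CPM in labelled knockdown replicates 1 to 4, and at 0, 0.0603, 10.6 and 0.231 CPM in wildtype replicates 1 to 4. Only wildtype replicate 3 stood out, with 612 counts against at most 28 in any other library, and the groups overlapped. The group means were 0.172 ± 0.208 CPM and 2.73 ± 5.26 CPM (SD, n = 4 each, labelled knockdown and wildtype). By edgeR's quasi-likelihood test the log2 fold change of −3.96, with SE 2.16, did not pass the threshold of 0.05 (adjusted p = 0.530). A two-sided exact permutation test on log2 CPM gave p = 0.629.

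Cfd encodes complement factor D, also called adipsin, the serine protease of the alternative complement pathway that mouse fat cells secrete (ENSMUSG00000061780, chromosome 10, 79890853 to 79892655, plus strand). Its levels were 0, 0, 0.0627 and 0.690 CPM in labelled knockdown replicates 1 to 4, and 0, 0, 17.2 and 2.38 CPM in wildtype replicates 1 to 4. It was the most abundant of the 7 low genes in wildtype replicate 3 on the per-length scale as well, at 15.8 FPKM (fragments scaled to gene length and library total). Libraries with clear counts existed in both groups (47 in labelled knockdown replicate 4, 175 in wildtype replicate 4 and 994 in wildtype replicate 3), while wildtype replicates 1 and 2 had none. Cfd did not pass the filter on low counts and was not tested in the fit over all genes; the two-sided exact permutation test gave p = 0.429.

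Lep encodes leptin, the hormone by which fat stores signal satiety to the brain (ENSMUSG00000059201, chromosome 6, 29060220 to 29073877, plus strand). It had 68 counts (1.18 CPM) in wildtype replicate 3 and 0 in each of the other 7 libraries, 4 of them labelled Mertk knockdown. Retn encodes resistin, which in mice is made by fat cells (ENSMUSG00000012705, chromosome 8, 3655770 to 3660110, plus strand). It had 0 counts in all 4 labelled knockdown libraries, 43 counts (0.746 CPM) in wildtype replicate 3, 8 counts (0.109 CPM) in wildtype replicate 4 and 0 in wildtype replicates 1 and 2. No fold change between groups is given for these genes, because 2 or 3 wildtype libraries were at 0 as well. Neither passed the filter on low counts.

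**Figure D1:**
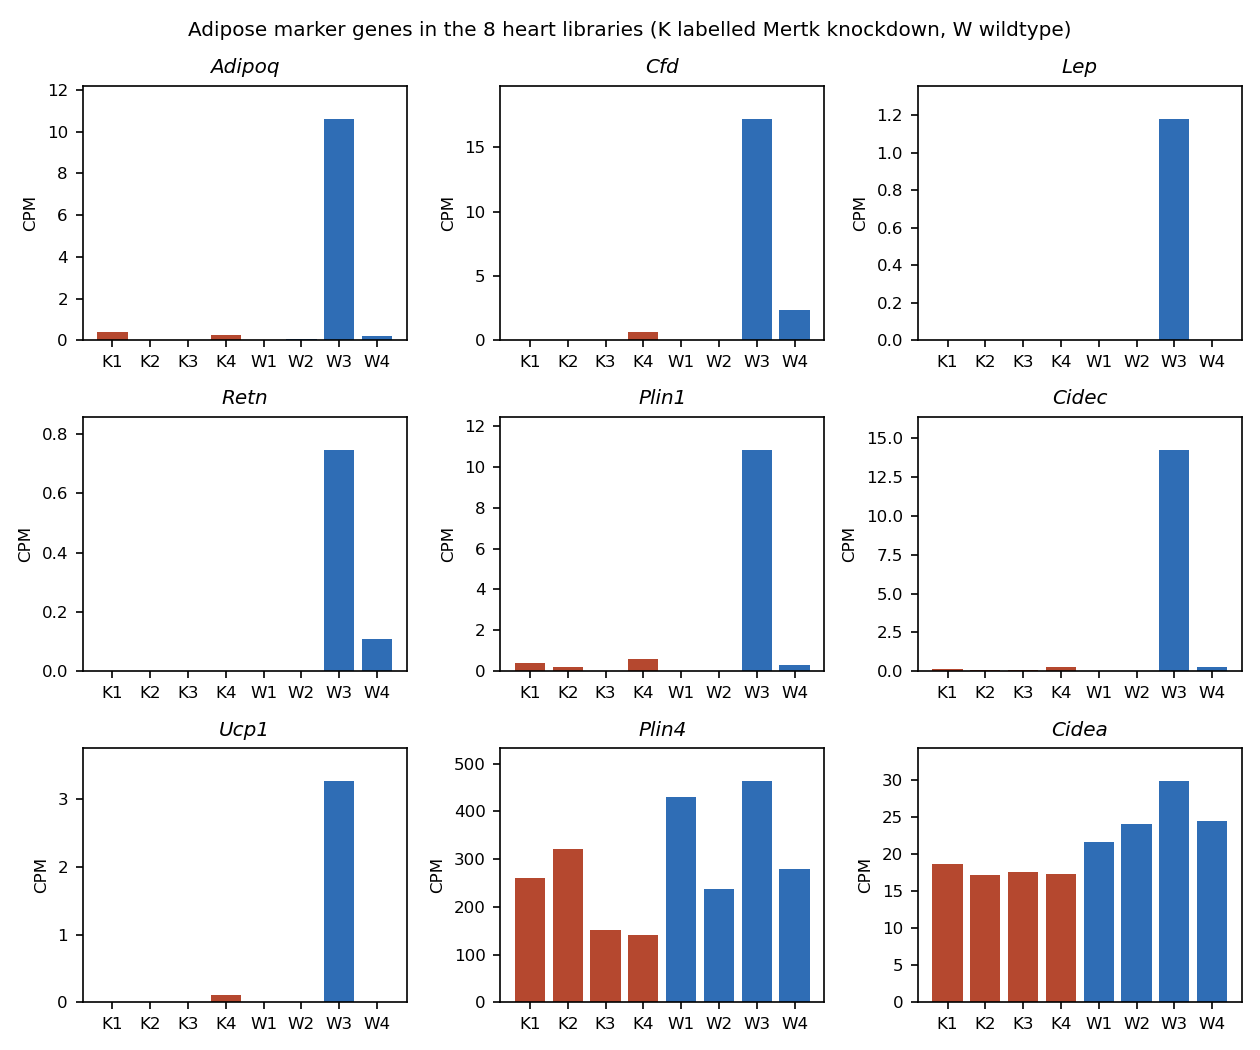
Level of each of the 9 adipose marker genes (CPM, linear axes from 0, a different scale in each panel) in the 4 libraries labelled Mertk knockdown (K1 to K4, red) and the 4 wildtype libraries (W1 to W4, blue), 1 bar a library. Adipoq, Cfd, Lep, Retn, Plin1, Cidec and Ucp1 stand almost wholly in W3, while Plin4 (142 to 463 CPM) and Cidea (17.2 to 29.8 CPM) are present in all 8 libraries.

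The droplet genes of white fat followed the adipokines. Plin1 encodes perilipin 1, the coat protein that restrains lipolysis on the large droplet of fat cells (ENSMUSG00000030546, chromosome 7, 79720218 to 79732835, minus strand). It was at 0.422, 0.196, 0 and 0.616 CPM in labelled knockdown replicates 1 to 4, and at 0, 0, 10.8 and 0.312 CPM in wildtype replicates 1 to 4. Outside wildtype replicate 3, counts were seen in 3 of the 4 labelled knockdown libraries and in 1 of the 3 remaining wildtype libraries. The log2 fold change was −3.15 with SE 2.06 (adjusted p = 0.604 by edgeR; two-sided exact permutation p = 0.914). Cidec, whose protein fuses droplets in white fat cells (ENSMUSG00000030278, chromosome 6, 113424634 to 113435760, minus strand), was at 0.136, 0.0604, 0.0940 and 0.279 CPM in labelled knockdown replicates 1 to 4, and at 0, 0.0453, 14.2 and 0.285 CPM in wildtype replicates 1 to 4. It was the low gene with counts in the most libraries, 7 of 8, and wildtype replicate 3 exceeded wildtype replicate 4, the next highest, 49.7-fold. Cidec was not tested in the fit over all genes (two-sided exact permutation p = 0.8).

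Ucp1, the uncoupling protein that makes heat in brown and beige fat (ENSMUSG00000031710, chromosome 8, 83290352 to 83298452, plus strand), was present beside the white fat genes. It had 7 counts (0.103 CPM) in labelled knockdown replicate 4 and 0 in labelled knockdown replicates 1 to 3, against 188 counts (3.26 CPM) in wildtype replicate 3 and 0 in wildtype replicates 1, 2 and 4. On the per-length scale Ucp1 was at 1.68 FPKM in wildtype replicate 3, close to Plin1 at 1.95 FPKM and below Adipoq at 6.47 and Cidec at 6.42 FPKM; Retn (0.390 FPKM) and Lep (0.295 FPKM) were lowest. These comparisons between genes come from 1 library and have no replicate error. Among other brown fat genes, Otop1, a proton channel first found in the inner ear, had 66 counts in wildtype replicate 3, 4 counts in labelled knockdown replicate 2 and 0 in the other 6 libraries. Elovl3 and Zic1, used as markers of classical brown fat, were at 0 in wildtype replicate 3, and nowhere above 0.455 CPM. They had counts in only 4 and 2 libraries. Ebf2 and Dio2 had counts in all 8 libraries, with 12.9% and 2.28% of their sums in wildtype replicate 3. Kng2 had counts in 5 libraries and 0% there. The kind of fat was not tested.

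Without wildtype replicate 3, the tested low genes were no longer below 0. The log2 fold change of Adipoq was then 0.79 with SE 1.58 (edgeR adjusted p = 0.918). That of Plin1 was 1.53 with SE 1.58 (edgeR adjusted p = 0.817). Both were above 0 but smaller than their SE, and neither was past the threshold. Leaving out any other single library kept Adipoq between −4.90 and −3.55 and Plin1 between −3.72 and −2.74. Of the 9 members, 4 passed the filter on low counts (Adipoq, Plin1, Plin4 and Cidea), 0 were called in either direction, and 0.647% of the 17787 tested genes were (0.371% lower). DESeq2 gave an adjusted p for 4 of the 9 (Plin4, Cidea, Cfd and Retn) and called 1 of these 4, Cidea, where 2.87% of its tested genes were called. No member was called without wildtype replicate 3 (0.346% of tested genes) or with the replicate number as a block (0.135%). At an unadjusted p under 0.05 edgeR had 1 lower member, again Cidea, against 6.32% of all tested genes.

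**Figure D2:**
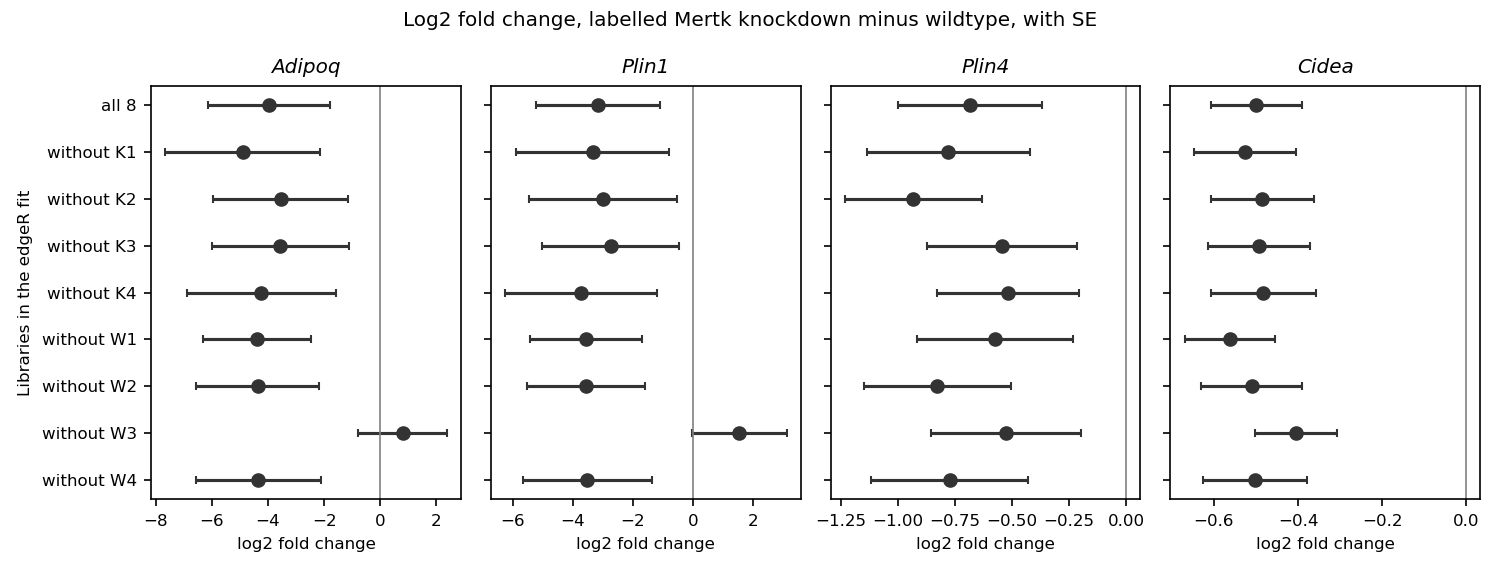
Log2 fold change (labelled Mertk knockdown minus wildtype, points, with SE as bars) of the 4 members tested by edgeR, with all 8 libraries in the top row and with 1 library left out in each other row (K, labelled Mertk knockdown; W, wildtype). Adipoq and Plin1 lie below 0 in every row except without W3, where they are 0.79 and 1.53; Plin4 and Cidea stay below 0 throughout.

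Over the whole table, few genes lay almost wholly in wildtype replicate 3. With a share above 80% of the summed CPM and at least 2 CPM in the library, limits chosen after the values were seen, 6 genes qualified in wildtype replicate 3. They were Cfd, Cidec, Plin1, Adipoq, Ucp1 and Adrb3, the last being the beta-3 adrenergic receptor that starts lipolysis in mouse fat. The same limits gave 0 to 7 genes in the other libraries, none of them a member. Adrb3 was at 0, 0.0604, 0 and 0.176 CPM in labelled knockdown replicates 1 to 4, and at 0, 0.0905, 2.15 and 0.109 CPM in wildtype replicates 1 to 4.

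Summed over the 7 low genes, the fat signal came to 0.980, 0.257, 0.157 and 1.95 CPM in labelled knockdown replicates 1 to 4, and to 0, 0.106, 58.0 and 3.31 CPM in wildtype replicates 1 to 4. Wildtype replicate 3 was 17.5-fold above wildtype replicate 4, the next highest, and held 89.6% of the sum over all libraries. All 7 genes had counts in wildtype replicate 3, 5 of 7 in labelled knockdown replicate 4 and in wildtype replicate 4, 2 or 3 in labelled knockdown replicates 1 to 3, 2 in wildtype replicate 2, and none in wildtype replicate 1. The 3 libraries with the highest fat sums were the 3 with the highest atrial sums, but not in the same order: labelled knockdown replicate 4 had the most atrial signal and the least fat of the 3. Hepatocyte signal did not follow the fat signal, being 27.4 CPM in wildtype replicate 3 and 254 CPM in wildtype replicate 1, which had no fat counts. Mesothelial markers, which cover the surface of the heart, summed to 6.94 CPM in wildtype replicate 3, the lowest of all libraries, against 8.43 to 28.4 CPM elsewhere. The part of atrial or other tissue in the fat signal was not tested.

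**Figure D3:**
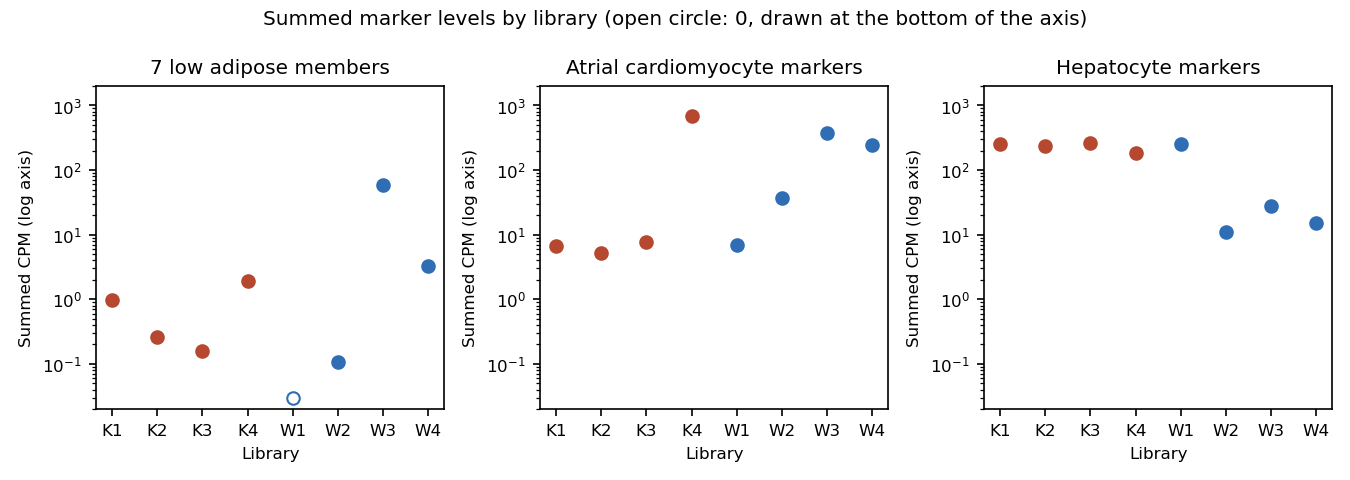
Summed CPM (log axes) of the 7 low adipose genes, of 5 atrial cardiomyocyte markers and of 13 hepatocyte markers in the 4 libraries labelled Mertk knockdown (K1 to K4, red) and the 4 wildtype libraries (W1 to W4, blue), 1 point a library; an open circle marks a sum of 0. The fat sum is 58.0 CPM in W3 and at most 3.31 CPM elsewhere, the atrial sum is 245 to 679 CPM in K4, W3 and W4, and the hepatocyte sum is high in K1 to K4 and W1.

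The share of Cfd among the fat counts was not the same in every library. Cfd made up 35.3% of the counts of the 7 low genes in labelled knockdown replicate 4 (95% exact Clopper-Pearson interval 27.3 to 44.1), 29.7% in wildtype replicate 3 (28.2 to 31.3) and 71.7% in wildtype replicate 4 (65.6 to 77.3). The interval of wildtype replicate 4 did not overlap those of the other two. Labelled knockdown replicate 1, with 65 such counts, had none of Cfd (interval 0 to 5.52). These intervals cover counting error only, and are too narrow if 1 count is less than 1 fragment. Each comes from 1 library, so a difference in makeup beyond the scatter among libraries was not tested. Accordingly, wildtype replicate 3 exceeded wildtype replicate 4 by 46.0-fold for Adipoq, 34.6-fold for Plin1 and 49.7-fold for Cidec in CPM, but by 7.26-fold for Cfd.

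Plin4 and Cidea, by contrast, were genes of every library. Plin4 encodes perilipin 4, which coats small new droplets (ENSMUSG00000002831, chromosome 17, 56100591 to 56109803, minus strand). It was at 260, 322, 151 and 142 CPM in labelled knockdown replicates 1 to 4, and at 429, 237, 463 and 280 CPM in wildtype replicates 1 to 4. Wildtype replicate 1, without a single count of the 7 low genes, was nearly as high as wildtype replicate 3, and the groups overlapped. Means were 219 ± 87.2 CPM and 352 ± 110 CPM (SD, n = 4 each, labelled knockdown and wildtype), with a log2 fold change of −0.69 and SE 0.31 (adjusted p = 0.427 by edgeR; two-sided exact permutation p = 0.143). It shares 17 bases with Hdgfl2 on the other strand, and the strand setting of the counting is not given.

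Cidea encodes a droplet protein best known from brown fat (ENSMUSG00000024526, chromosome 18, 67343604 to 67367785, plus strand). It was at 18.7, 17.2, 17.5 and 17.3 CPM in labelled knockdown replicates 1 to 4, and at 21.6, 24.0, 29.8 and 24.5 CPM in wildtype replicates 1 to 4. All 4 labelled knockdown libraries lay below all 4 wildtype libraries, which was so for 3.90% of the tested genes; groups did not overlap in either direction for 8.07%. Means were 17.7 ± 0.703 CPM and 25.0 ± 3.44 CPM (SD, n = 4 each, labelled knockdown and wildtype). The log2 fold change of −0.50, with SE 0.11, did not pass by edgeR (adjusted p = 0.0839), and the two-sided exact permutation test gave p = 0.0286, the smallest value that 4 against 4 libraries can give. DESeq2 called it (adjusted p = 0.011, where 1.62% of its tested genes were called lower), and so did edgeR without wildtype replicate 1 (adjusted p = 0.0399, with 0.549% called lower and 1.45% in either direction). The adjusted p ranged from 0.011 to 0.688 over the 20 alternatives. Without wildtype replicate 3 the log2 fold change was −0.40 (edgeR adjusted p = 0.149). Among the 5 libraries high in hepatocyte transcripts, of which 1 is wildtype, it was −0.28, so the value there was smaller by more than 1.5 times. Cidea shares 500 bases with the antisense gene B430212C06Rik, which was at 0.317 to 1.59 CPM.

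Within the perilipin and CIDE families, Plin2 to Plin5 and Cidea had higher per-length levels in every library than Plin1, Cideb and Cidec. The cells that made these transcripts were not tested. The libraries labelled Mertk knockdown had 9.80 to 11.8 FPKM of Plin2, 26.9 to 51.0 of Plin3, 20.8 to 46.1 of Plin4 and 25.4 to 37.1 of Plin5, the perilipin of oxidative tissues, and the wildtype libraries had 10.3 to 11.6, 26.0 to 36.6, 34.8 to 61.4 and 16.8 to 34.4 FPKM of the same genes. Plin1 stayed at or below 0.118 FPKM in the labelled knockdown libraries and at or below 0.0606 FPKM in wildtype replicates 1, 2 and 4. Cidea was at 14.0 to 14.9 FPKM in the labelled knockdown libraries and at 17.3 to 22.5 FPKM in wildtype. Cideb, known from liver, was at 0.425 to 0.833 FPKM and 0.468 to 0.939 FPKM, and Cidec at 0.0294 to 0.128 FPKM in the labelled knockdown libraries and 0 to 0.143 FPKM in wildtype replicates 1, 2 and 4. None of Plin2, Plin3, Plin5 and Cideb was called (edgeR adjusted p of 0.756 to 0.991, log2 fold changes of −0.13 to 0.21).

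**Figure D4:**
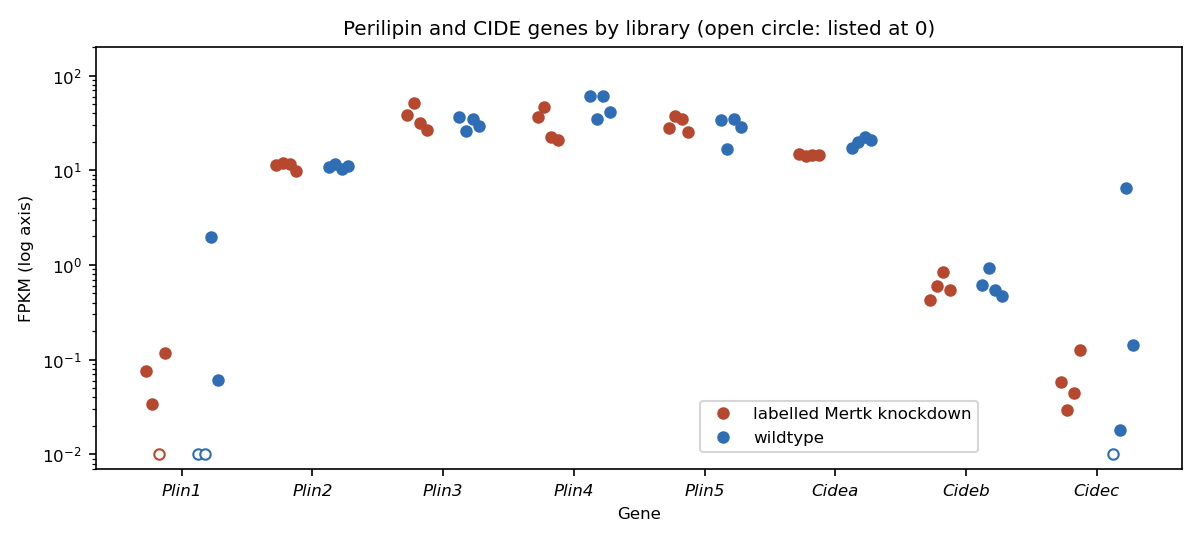
Deposited FPKM (log axis) of the 5 perilipin genes and the 3 CIDE genes in each library, with the 4 labelled Mertk knockdown libraries (red) left of the 4 wildtype libraries (blue); open circles are listed at 0. Plin2 to Plin5 and Cidea lie between 9.80 and 61.4 FPKM in all 8 libraries, and Plin1 and Cidec lie below 0.2 FPKM except in wildtype replicate 3 (1.95 and 6.42 FPKM).

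Of 16 further genes of adipocyte identity, all in the table and 13 tested, 0 were called by edgeR and 1 by DESeq2, Lipe, where DESeq2 called 2.87% of all genes it tested. Their median log2 fold change was −0.42, and 11 of the 13 were below 0, where the median of all tested genes was −0.000709 and 50.1% were below 0. Without wildtype replicate 3 the median of the list was 0.00272 and 6 of the 13 were below 0. Of the 16, 11 were highest in wildtype replicate 3. Aqp7 and Mrap were highest in labelled knockdown replicates 3 and 2. Fabp4 was highest in wildtype replicate 2, and Pparg and Sncg in wildtype replicate 4. Wildtype replicate 3 held 14.6%, 12.4% and 8.69% of the sums of Aqp7, Mrap and Sncg. Car3, a carbonic anhydrase abundant in fat, was at 2.76, 2.04, 2.33 and 1.23 CPM in labelled knockdown replicates 1 to 4, and at 2.52, 0.407, 50.5 and 2.84 CPM in wildtype replicates 1 to 4. Pck1, the phosphoenolpyruvate carboxykinase of glycerol and glucose synthesis, was at 2.79 to 4.04 CPM in the labelled knockdown libraries and at 2.76, 0.0453, 34.1 and 0.407 CPM in wildtype replicates 1 to 4; the liver also makes it, and its low levels followed the hepatocyte markers. Adig, Acvr1c and Slc7a10 were likewise highest in wildtype replicate 3, at 2.12, 0.850 and 0.555 CPM, against at most 0.734, 0.293 and 0.0734 CPM in any other library. Fabp4 (205 to 270 CPM in the labelled knockdown libraries, 236 to 298 in wildtype) and Pparg (at least 6.58 CPM in every library), a fatty acid carrier and the master regulator of fat cell formation, were spread over all libraries; both are also made by capillary endothelium. The 2 genes of the list with the smallest p were Lipe, hormone-sensitive lipase (23.3 to 39.6 CPM in the labelled knockdown libraries, 39.5 to 67.0 in wildtype; log2 fold change −0.70 with SE 0.19, adjusted p = 0.172 by edgeR), and Cebpa (−0.66 with SE 0.23, adjusted p = 0.278 by edgeR).

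**Figure D5:**
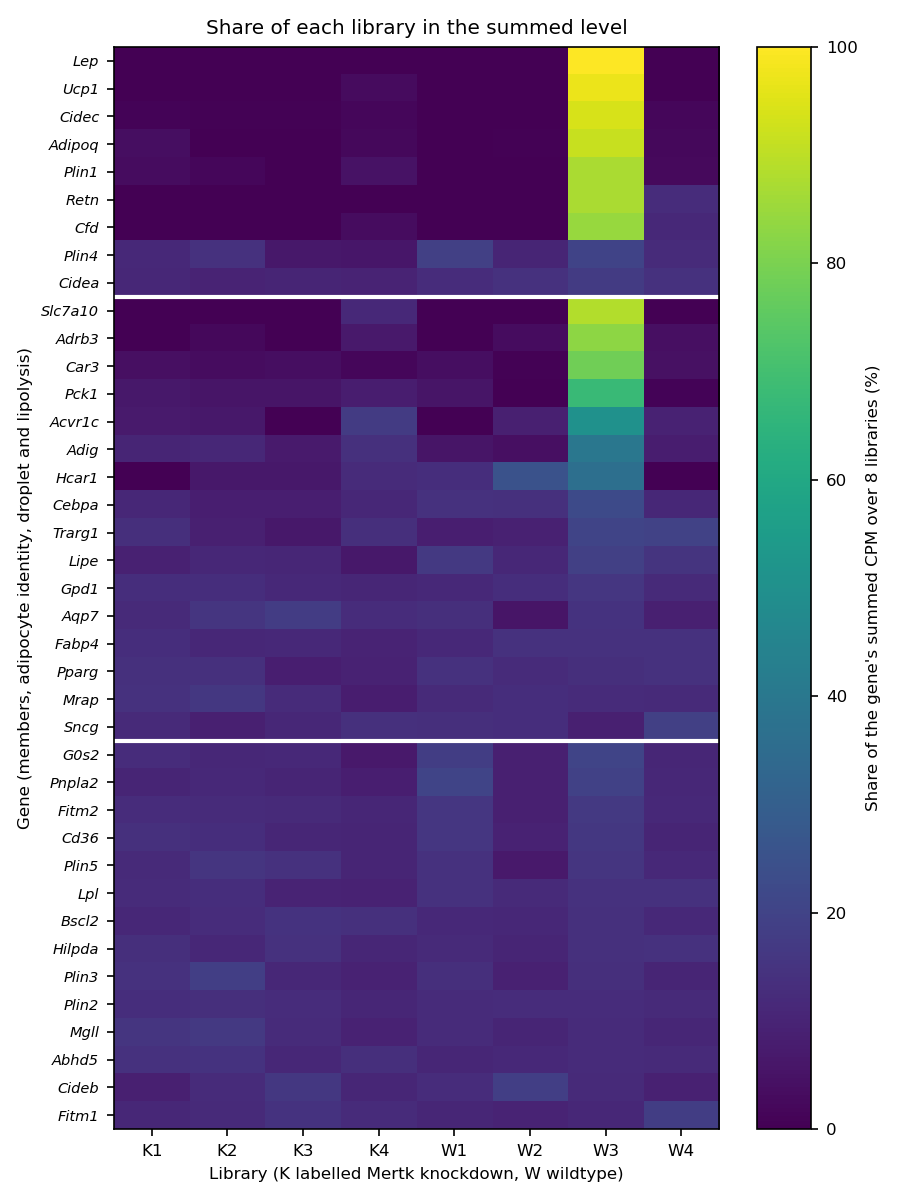
Share (%) of each gene's summed CPM that lies in each library (K1 to K4 labelled Mertk knockdown, W1 to W4 wildtype), for the 9 members (top), 16 genes of adipocyte identity (middle) and 14 genes of lipid droplets and lipolysis (bottom), each block sorted by the share in W3. An even spread is 12.5%; 7 members exceed 80% in W3, as do Slc7a10 and Adrb3, while no gene of the bottom block exceeds 20.4% there.

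In the remaining lists of the fat programme, the genes highest in wildtype replicate 3 were counted beside the 11.7% of all tested genes that were highest there. Of 16 genes of fatty acid and triglyceride synthesis in the table, 2 were highest there. All 16 were tested, and 0 were called by edgeR (median log2 fold change 0.06). Lpin1 (0.50, edgeR adjusted p = 0.0770) and Scd1 (0.65, edgeR adjusted p = 0.178) had the smallest p. DESeq2 called both higher in the labelled knockdown libraries, where it called 2.87% of all genes it tested in either direction. The groups did not overlap for these 2 and for Mlxipl, a transcription factor of sugar-driven fat synthesis, as for 8.07% of all tested genes. Of 14 genes of droplets and lipolysis, 3 were highest there and 0 were called (median −0.01), with Lpl, which frees fatty acids from lipoproteins, at −0.28 (edgeR adjusted p = 0.419) and Pnpla2, the first lipase of droplets, at −0.54 (edgeR adjusted p = 0.445). Of 15 brown fat genes 5 were highest there: Otop1, Bmp8b, Cox7a1, Cox8b and Cpt1b. Otop1 and Bmp8b (wildtype mean 0.0130 CPM) were not tested, so the 11.7% does not cover them. Cox7a1, Cox8b and Cpt1b were present in all libraries, with 16.7%, 18.1% and 15.4% of their sums there. Of the 10 tested brown fat genes 0 were called (median 0.07). Prdm16 had 0.51 (edgeR adjusted p = 0.169) and Ppargc1b 0.55 (edgeR adjusted p = 0.290). Of 10 genes of adipokine reception, 0 were called and 0 were highest in wildtype replicate 3 (median 0.08). The adiponectin receptors Adipor1 and Adipor2 were at 135 to 162 and 76.6 to 92.0 CPM in the labelled knockdown libraries and at 137 to 154 and 76.1 to 81.7 CPM in wildtype. The leptin receptor Lepr was at 1.65 to 3.14 CPM in the labelled knockdown libraries and at 0.935 to 2.59 CPM in wildtype. Irs1 (0.29, edgeR adjusted p = 0.399) and Adrb1 (0.32, edgeR adjusted p = 0.467) had the smallest p of that list. Of 7 tested genes of adipose progenitors 0 were called (median 0.28), with Ly6a at −0.88 (edgeR adjusted p = 0.166) and Pdgfrb at 0.40 (edgeR adjusted p = 0.284).

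Of 7 other secreted adipokines, 3 were highest in wildtype replicate 3, as were 11.7% of all tested genes. Agt and Nampt were highest in wildtype replicate 1, and Angptl4 in labelled knockdown replicate 3. Among the 3, Sfrp5, a secreted Wnt inhibitor also called an adipokine, was at 7.03 CPM in wildtype replicate 3. Its level was 0.181 to 1.58 CPM in the labelled knockdown libraries and 0.226 to 2.01 CPM in the other wildtype libraries. By edgeR Sfrp5 was not called (adjusted p = 0.539). The calls of the list as a whole are not reported here.

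By Pearson correlation of log2 CPM over the 8 libraries, the genes outside the 9 that were most like Adipoq, among 12354 tested genes that averaged 1 CPM or more (clones and predicted genes left out), were Nfu1 (r = 0.934), Mpp6 (0.914), Prkar2b (0.901), Cox7c (0.891), Ndufb1-ps (0.887), Ldhb-ps (0.880), Hmgb1-ps3 (0.877), Dbi (0.875), Rpl27a-ps4 (0.869) and Hmga1b (0.867). By the same measure Adipoq had r = 0.927 with Cidec and 0.904 with Plin1, r = 0.859 with Ucp1, 0.833 with Retn, 0.831 with Lep and 0.796 with Cfd. With the other members it had r = 0.642 (Cidea) and 0.306 (Plin4). These r values rank genes over the same 8 libraries and were not tested. Of the 10, Prkar2b, a regulatory subunit of protein kinase A abundant in fat, stood furthest apart, at 6.71 CPM in wildtype replicate 3 and 0.971 to 2.53 CPM elsewhere, while Nfu1 was at 29.8 CPM there and 23.8 to 27.9 CPM elsewhere. The 5 genes outside the 9 most like Cfd were Tg (0.931), Acss3 (0.921), Hap1 (0.917), Zfpl1 (0.911) and Cacna1h (0.906), the last a calcium channel gene at 36.5 CPM in wildtype replicate 3 and 5.61 to 27.1 CPM elsewhere.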

How the data were processed

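The 8 paired-end libraries were made from poly(A) RNA of mouse heart tissue. The deposited table gives whole-number read counts and FPKM (fragments scaled to gene length and library total) for each library, per the file headers. The submitters' processing notes name, without roles, the build mm10, the tools HISAT2 2.2.1, cutadapt 1.9 and StringTie 2.1.6, and also edgeR and DESeq2. Libraries were made with dUTP, which marks strand, per the labels' protocols; strand setting and annotation release are not given in the sources used here. Counts of 4 were listed for 2.12 to 2.55 times as many genes as the mean of 3 and 5, and counts of 8 and 12 were also in excess, so 1 count may be less than 1 fragment and counting intervals are too narrow.

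The main test was edgeR 4.0.16 (quasi-likelihood, robust, TMM, filterByExpr, R 4.3.3) over all genes and all 8 libraries, two-sided, with the threshold at 0.05 after Benjamini-Hochberg adjustment; SE is the log2 fold change divided by the square root of F. CPM uses TMM-scaled totals; log2 CPM has a prior count of 2. Alternatives used DESeq2 1.42.0, limma 3.58.1 on log2(FPKM + 1) and log2(FPKM + 0.1), other scalings and subsets. The code was tested on simulated data. Libraries of 1 group differed by more than counting noise in every pair (chi-square over degrees of freedom 37.89 or more). Genes named by rule were the 9 members, genes of the adipocyte lists, and the genes most like Adipoq and Cfd. From each of the 7 adipocyte lists except 1, whose result is not reported, the rule took the called genes (or the 2 with the smallest p). All other genes were named after their values were seen. Members and lists were chosen with earlier results of these data known. The 9 exact permutation tests of members are unadjusted. The result of 1 adipocyte list is not reported here.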

Additional observations from a re-analysis of the deposited data

Results flagged for a closer look

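Wildtype replicate 3 lay far above the other 3 wildtype libraries, relative to their range, for 7 members: Adipoq (10.6 CPM against 0 to 0.231), Cfd (17.2 against 0 to 2.38), Plin1 (10.8 against 0 to 0.312), Cidec (14.2 against 0 to 0.285), Lep (1.18 against 0), Retn (0.746 against 0 to 0.109) and Ucp1 (3.26 against 0). Their sum, 58.0 CPM, was far above the others as well and is not separate evidence. In the labelled knockdown group, replicate 4 stood apart for Cfd (0.690 CPM against 0 to 0.0627) and Ucp1 (0.103 CPM against 0). The same replicate stood apart for the summed atrial markers (679 CPM against 5.26 to 7.60), and wildtype replicate 1 for the summed hepatocyte markers (254 CPM against 11.2 to 27.4).

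Outside the members, Lpin1 was low in labelled knockdown replicate 3 (141 CPM against 181 to 182) and Lpl was low in wildtype replicate 2 (3370 CPM against 4010 to 4080). Chance alone flags about 1 in 20 groups only if values follow a normal distribution, which groups with libraries at 0 do not. Where all libraries but 1 are at 0, any count in that library is flagged, as for Lep and Ucp1. The flags of members in wildtype replicate 3 restate the shares given above and are not separate evidence.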

How the results depend on the processing

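Over 20 alternatives, 0 members were called in 18 and 1 (Cidea) in 2, by DESeq2 (1 call; log2 fold change −0.50) and without wildtype replicate 1; leaving out 1 library gave 0 to 1 calls and −0.56 to −0.40 for Cidea. Plin4 was below 0 in all 20 and never called. Adipoq ran from −4.90 to 0.79 when 1 library was left out and was 6.52 among the libraries high in liver transcripts. Plin1 ran from −3.72 to 1.53, and was 7.35 among the libraries high in liver transcripts and 0.68 with the liver covariate. Without the 2 libraries highest in atrial transcripts (labelled knockdown replicate 4 and wildtype replicate 3) Plin1 was 0.96, and wildtype replicate 4, at 245 CPM, stayed in. Among libraries under 100 CPM of atrial transcripts, an alternative chosen after seeing the data, Plin1 was 6.77. The values above 6 rest on wildtype libraries at 0 and depend on the prior count. Adipoq could not be fitted in the 2 atrial subsets, where it was filtered out, and DESeq2 gave no adjusted p for Adipoq, Plin1, Cidec, Lep or Ucp1. With no filter all 9 members were tested and 0 called (adjusted p of 0.0831 to 0.581).

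DESeq2 called 1 gene of adipocyte identity (Lipe), 2 of fat synthesis, 1 of progenitors and 1 cardiomyocyte marker. Among the libraries high in liver transcripts, wildtype is 1 library assumed to vary like the labelled knockdown ones, so calls of these lists there are not given. Leaving out 1 library gave 0 to 1 calls for fat synthesis, brown fat, cardiomyocyte and mesothelium markers, and 0 to 11 for hepatocyte markers (11 without wildtype replicate 1). The causes were not tested.

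Replicate numbers did not pair the libraries (same-number correlations of deviations 0.0615, 6.3e-05, −0.00646 and 0.181; not every library correlated best with its own number). With the replicate block 24 genes were called against 115, Plin1 was 0.84 and Adipoq −1.07, with 0 members called. DESeq2 called 583 genes, and edgeR 265 without wildtype replicate 1 and 63 without wildtype replicate 3. Levels below 0.0407 to 0.0521 CPM, by library, are not resolved at this depth.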
